A study of Mus musculus with 8 samples.

Results

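The genes described here copy and divide the genome. They are 50 mouse genes of DNA replication and mitosis, chosen by symbol from the known roles of their products, and all 50 were found by symbol among the 43629 Ensembl gene IDs of the count table. Their RNA was measured by bulk RNA sequencing in the dorsal forebrain of E12.5 male embryos whose strain is labelled as mixed background with C57BL/6J. The Sufu-cKO group (4 samples: Mut_295, Mut_317, Mut_337 and Mut_340) was Emx1-cre/+;Sufu-fl/fl. The control group (4 samples: Cont_294, Cont_345, Cont_365 and Cont_370) was Sufu-fl/fl or Sufu-fl/+ with no Emx1-cre listed, so both groups carried at least 1 floxed Sufu allele. Emx1-cre is active in progenitors of the dorsal telencephalon and their descendants and not in every cell of the dissected tissue. The labels do not say which controls had which genotype, nor whether samples came from separate embryos or litters, so the p-values below measure only how far these samples spread, and that spread may be technical.

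Sufu is a cytoplasmic inhibitor of the GLI transcription factors of the hedgehog pathway, and hedgehog signalling is known to drive progenitor division in several parts of the developing brain. Cortical progenitors divide along the ventricle. In G1 phase they load the MCM helicase onto replication origins, and as S phase begins E2F factors raise the genes for cyclin E, the replication enzymes and the deoxynucleotide supply. Genes needed in G2 phase and mitosis are switched on later, largely through promoters that carry CCAAT boxes and a cell cycle homology region (CHR), the binding element of the MuvB complex. RNA of both waves is therefore a common measure of how many cells in a tissue are cycling.

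Total counts were 27514357 to 34878838 per sample. Sufu itself was at 105 to 125 CPM (counts scaled to a common library size) in the controls and at 35.9 to 44.8 in Sufu-cKO (log2 fold change -1.46, adjusted p = 1.07e-06 by edgeR's quasi-likelihood test with Benjamini-Hochberg adjustment), and the groups did not overlap. All 8 dorsal forebrain markers of a fixed list were detected. Of these, 2 were called higher and 4 lower in Sufu-cKO, with Pax6 among the former and Emx1 among the latter. Only the Sufu-cKO group has Emx1-cre listed. Effects of the cre allele and of Sufu loss therefore cannot be told apart, for Emx1 or any other gene.

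The 50 genes were slightly higher in Sufu-cKO as a list, and few differed beyond the replicate spread on their own. Their summed level was 10945, 10913, 10160 and 10322 CPM in Cont_294, Cont_345, Cont_365 and Cont_370, and 11336, 11707, 11236 and 12408 CPM in Mut_295, Mut_317, Mut_337 and Mut_340. The groups did not overlap, and the ratio of their means was 1.10. This is 1.06% of all counts in the controls and 1.17% in Sufu-cKO. In such bulk tissue, fewer cells of a type and less RNA per cell cannot be told apart, and the same holds for more cells and more RNA.

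All 50 passed the filter on low counts, and the smallest count of any of them in any sample was 628. At an adjusted p under 0.05 over all 15382 tested genes (edgeR), 6 rose in Sufu-cKO: Ccnb2, E2f1, Cdc6, Ccne2, Cdc25b and Hmmr. That is 12% of the 50, beside 5.34% called higher among all tested genes. None of the 50 was called lower, beside 5.64% of all genes. At an unadjusted p under 0.05, 18 were higher and 0 lower, beside 11.6% higher and 10.9% lower among all genes, and DESeq2 and limma-voom also called 0 of them lower. The lowest Sufu-cKO sample exceeded the highest control for 8 genes (Cdc6, Mcm4, E2f1, Ccne2, Ccnb2, Cdc25b, Birc5 and Hmmr), 16% of the 50, beside 8.33% of all genes. No gene had all 4 Sufu-cKO samples below all controls, beside 7.86% of all genes. A positive log2 fold change was found in 44 of the 50 (88.0%), beside 51.8% of all tested genes. The number with a positive log2 fold change was 39 to 45 under the 17 other settings of the analysis, and not always of the same genes.

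The differences were small. Log2 fold changes ran from -0.09 (Orc1) to 0.37 (Ccne2), with a median of 0.12 beside 0.01 for all genes. The 95% interval lay wholly between a rise of 25% and the inverse fall for 34 of the 50 genes (68.0%), beside 43.1% of all genes. These genes were also measured tightly: the median standard error was 0.064 on the log2 scale, against 0.102 over all genes, and the median mean level was 132 CPM. Within a genotype the median coefficient of variation was 4.82% in the controls and 6.58% in Sufu-cKO, against 8.36% and 10.4% for all tested genes. The number called depended on single libraries. It was 3 without Cont_345, which also lowered the genes called higher overall from 822 to 537. The number was 2 without Cont_365, with 587 genes called higher overall. DESeq2 called 10, beside 6.86% of all genes by that tool, and the 4 it added were Mcm4, Ccna2, Top2a and Mki67. No tool called a gene of the fork, deoxynucleotide, mitotic kinase, checkpoint or centromere groups. Ccnb2 and E2f1 were called under all 17 alternatives. In the authors' deposited table, 2 of the 50 had a false discovery rate under 0.05, Ccne2 and E2f1, beside 2.68% of all genes there with a fold above 1.

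**Figure D1:**
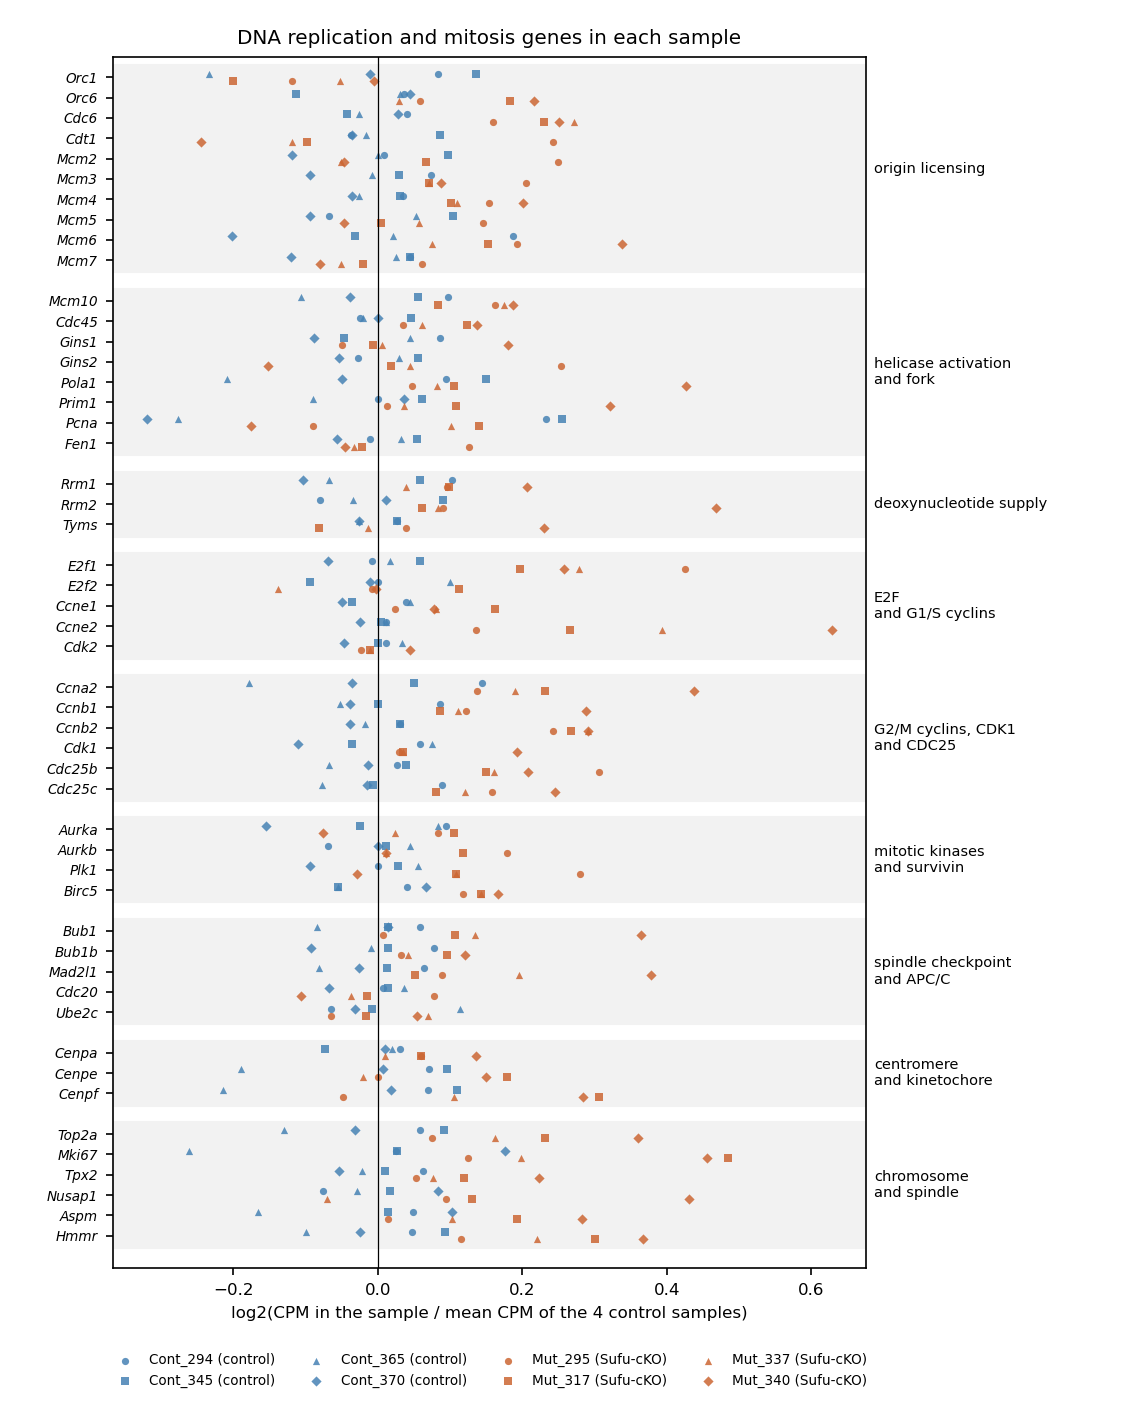
Level of each of the 50 genes in every sample, as log2 of CPM over the control mean of the same gene (x axis), with genes grouped by role (y axis), a symbol for each sample and a colour for each genotype. The Sufu-cKO points lie to the right of all control points for 8 genes, and Mut_340 is the rightmost Sufu-cKO sample for 29 of the 50.

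The extremes within a genotype were held unevenly by its samples. Mut_340 held the highest Sufu-cKO value for 29 of the 50 genes, and Mut_295 the lowest for 21. Among the controls, Cont_294 and Cont_345 held the highest value for 20 and 17 genes and Cont_370 the lowest for 23. Leaving out Mut_340 left 5 genes called and 43 positive, and lowered the genes called higher overall from 822 to 692. Leaving out Mut_295 raised the genes called among the 50 to 9, and those called higher overall to 939.

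The promoters of 42 of the 50 genes were found by symbol in a RefSeq table (GRCm38.p6, 250 bases before to 50 after each annotated start). The other 8 had no entry and were not searched: Aurkb, Ccna2, Ccne2, Cdc25c, Gins1, Gins2, Mcm4 and Tpx2. Some genes have more than 1 start, which gave 45 promoters among 32851 in the table. Both strands were searched for 3 motifs. The E2F motif was any of TTTCCCGC, TTTGGCGC, TTTCGCGC or TTTGCCGC, the CHR either TTTGAA or TTTAAA (the latter is its own reverse complement), and the CCAAT box CCAAT. Matches of different letters may overlap, and each promoter was counted once per motif. An E2F motif was found in 10 of 25 promoters (40.0%) of the replication, E2F and G1/S genes, in 1 of 20 (5.0%, Cdk1) of the G2 and mitosis genes, and in 2.3% of all promoters. A CHR was found in 7 of those 25 (28.0%), in 16 of those 20 (80.0%) and in 27.6% of all promoters. A CCAAT box was in 18 of the 25 (72.0%), 17 of the 20 (85%) and 37.4% of all. The shares describe letters and not bound sites. GC content averaged 58.4% in the promoters of the 50 genes and 53.8% in all.

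The upstream sequences of the 4 called genes with the smallest p among those with a motif are shown 5′ to 3′ on the gene's strand, ending at the base before the annotated start, because they let the 2 promoter classes be read side by side. Capitals mark motif matches. A match on the opposite strand reads as its reverse complement, ATTGG for the CCAAT box and GCGGGAAA for the E2F motif. For Cdc6 and Hmmr the stretch begins where annotated exon sequence ends. The Cdc6 stretch precedes the RefSeq start used here but lies within the gene span given below, which begins at chr11:98907801. The sequences are Ccnb2 at chr9:70421555-70421804 (minus strand), Cdc6 at chr11:98907982-98908150 (plus), Cdc25b at chr2:131186698-131186947 (plus) and Hmmr at chr11:40733438-40733666 (minus), all GRCm38.p6.
Ccnb2: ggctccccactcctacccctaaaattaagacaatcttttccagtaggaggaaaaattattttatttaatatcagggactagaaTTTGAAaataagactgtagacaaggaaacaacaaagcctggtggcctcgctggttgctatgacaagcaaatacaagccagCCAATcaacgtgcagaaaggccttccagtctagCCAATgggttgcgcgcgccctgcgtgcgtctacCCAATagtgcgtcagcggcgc
Cdc6: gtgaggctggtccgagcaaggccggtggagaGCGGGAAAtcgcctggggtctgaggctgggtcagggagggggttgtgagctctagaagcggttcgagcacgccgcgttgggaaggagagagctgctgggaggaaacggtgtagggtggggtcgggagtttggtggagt
Cdc25b: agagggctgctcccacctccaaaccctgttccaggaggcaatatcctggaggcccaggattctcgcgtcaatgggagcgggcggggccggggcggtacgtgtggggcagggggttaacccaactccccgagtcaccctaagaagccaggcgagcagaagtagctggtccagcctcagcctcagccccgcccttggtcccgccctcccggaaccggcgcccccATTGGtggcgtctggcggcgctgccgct
Hmmr: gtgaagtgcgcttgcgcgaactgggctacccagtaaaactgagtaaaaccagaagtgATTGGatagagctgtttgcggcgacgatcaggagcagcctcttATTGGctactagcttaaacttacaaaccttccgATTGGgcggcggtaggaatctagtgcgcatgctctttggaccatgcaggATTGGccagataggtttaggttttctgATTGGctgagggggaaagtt
Ccnb2 has a CHR match and 3 CCAAT boxes in this stretch, and a CHR match again just after the start, at position 5. Hmmr has 5 CCAAT boxes, all on the opposite strand, with a CHR match at position 9 after the start. Cdc6 has 1 E2F match on the opposite strand, 138 bases before the start. Cdc25b has 1 CCAAT box. The E2f1 promoter held none of the 3 motifs, and Ccne2, also called, had no promoter entry to search.

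Origin licensing was covered by 10 genes: the origin recognition subunits Orc1 and Orc6, the loading factors Cdc6 and Cdt1, and the MCM helicase subunits Mcm2 to Mcm7. Cdc6 was the only one of the 10 that rose, 7 had a positive log2 fold change, and the median was 0.08. Cdc6 (ENSMUSG00000017499, chr11:98907801-98923940 on GRCm38), which loads the MCM ring with Orc1 to Orc6 and Cdt1, was at 67.7, 63.9, 64.6 and 67.1 CPM in Cont_294, Cont_345, Cont_365 and Cont_370. It was at 73.5, 77.2, 79.4 and 78.3 CPM in Mut_295, Mut_317, Mut_337 and Mut_340. Every Sufu-cKO sample was above every control. The means were 65.8 ± 1.86 and 77.1 ± 2.58 CPM (SD, n = 4 each), a log2 fold change of 0.23 (SE 0.053, adjusted p = 0.0162 by edgeR), which is 1.17-fold. The call was lost without Cont_345 (0.0647), Cont_365 (0.0541) or Mut_337 (0.0637), and in the authors' deposited table the false discovery rate of Cdc6 was 0.231.

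The MCM subunits themselves did not pass the test. Mcm6, the most abundant of the 10 by CPM, was at 470, 404, 419 and 359 CPM in the 4 controls and 472, 459, 435 and 522 in the 4 Sufu-cKO samples, in the order above. The groups overlapped, with Cont_294 close to Mut_295 and above Mut_317 and Mut_337 (log2 fold change 0.19, SE 0.082, adjusted p = 0.181 by edgeR). Mcm4 did not overlap, at 329 ± 8.66 CPM in the controls and 363 ± 11.8 in Sufu-cKO (SD, n = 4 each), yet missed the threshold (log2 fold change 0.14, adjusted p = 0.0917, edgeR). DESeq2 called it (adjusted p = 0.0206). The other subunits lay between -0.02 (Mcm7) and 0.11 (Mcm3). Cdt1, the licensing factor destroyed in S phase, had a log2 fold change of -0.04 (adjusted p = 0.846) and Orc1 one of -0.09 (0.629).

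None of the 8 genes of helicase activation and the replication fork passed in edgeR (1 at an unadjusted p under 0.05), with a median log2 fold change of 0.07 and a range of -0.00 to 0.17. Mcm10, which helps to activate the loaded helicase, had the smallest p, at 108, 105, 93.8 and 98.3 CPM in the controls and 113, 107, 114 and 115 in Sufu-cKO. Cont_294 exceeded Mut_317, so the groups overlapped (log2 fold change 0.15, SE 0.058, adjusted p = 0.145, edgeR). The primase partners Pola1 and Prim1 had log2 fold changes of 0.17 and 0.12, which were 0.07 and 0.05 without Mut_340. Those of Cdc45 and the GINS subunits Gins1 and Gins2 were 0.09, 0.03 and 0.05, and that of the flap nuclease Fen1 was 0.00.

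Pcna, the sliding clamp that holds DNA polymerase on its template, behaved differently from the rest of the fork genes within each genotype. It was at 195, 198, 137 and 133 CPM in Cont_294, Cont_345, Cont_365 and Cont_370, and at 156, 183, 178 and 147 CPM in Mut_295, Mut_317, Mut_337 and Mut_340. Each genotype split into a high and a low pair, and the means were equal at 166 ± 35.6 and 166 ± 17.6 CPM (SD, n = 4 each; log2 fold change -0.00, SE 0.147, adjusted p = 1.0, edgeR). Its 95% interval of -0.33 to 0.33 was the only 1 of the 50 to reach past a fall of that size. The processed copy Pcna-ps2 (ENSMUSG00000067608, chr19:9283238-9284494) was at 39.0, 36.2, 76.1 and 71.2 CPM in the same controls and 65.3, 36.0, 37.2 and 89.2 in the same Sufu-cKO samples. The 4 samples low in Pcna were the 4 high in Pcna-ps2. Counts of a gene and its processed copy can be split by how reads are assigned. Whether this happened here was not tested, and Pcna alone is uncertain. Added together, as an analysis chosen after these values were seen, the pair was at 234, 235, 213 and 204 CPM in the controls and 221, 219, 215 and 236 in Sufu-cKO. Over all 8 samples the coefficient of variation was 15.7% for Pcna, 38.3% for Pcna-ps2 and 5.21% for their sum. The log2 fold change of the sum was 0.01 (SE 0.059, 95% interval -0.12 to 0.14, adjusted p = 0.963, edgeR), so its interval was narrower than that of Pcna alone.

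**Figure D2:**
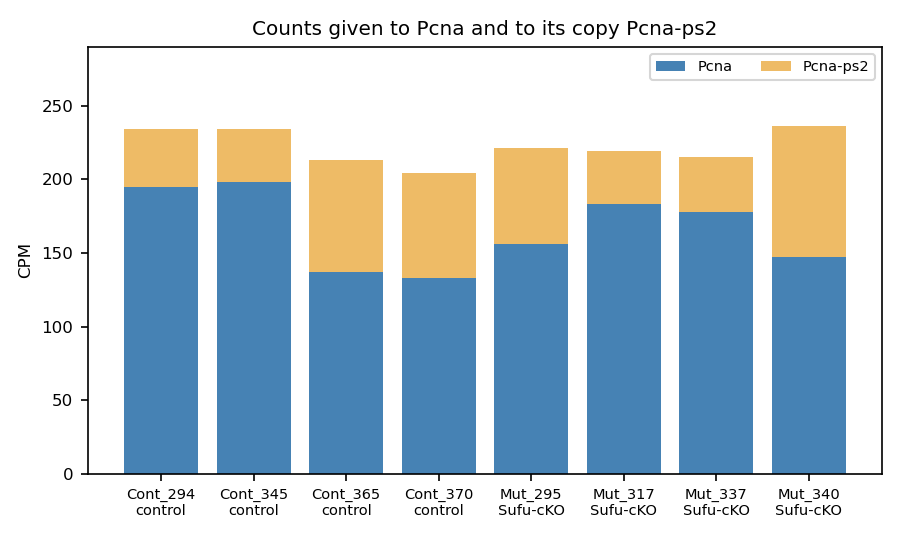
Level of Pcna and of its processed copy Pcna-ps2 in each of the 8 samples (x axis), as stacked bars in CPM (y axis) with Pcna below and the copy on top. Pcna runs from 133 to 198 CPM and Pcna-ps2 from 36.0 to 89.2, with the copy larger where Pcna is smaller, while the full bars stay between 204 and 236.

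The deoxynucleotide supply was covered by Rrm1 and Rrm2, the subunits of ribonucleotide reductase, and Tyms, thymidylate synthase. None of the 3 passed in edgeR, and 0 had an unadjusted p under 0.05. Rrm2 was at 368, 414, 380 and 392 CPM in the controls and 414, 406, 412 and 538 in Sufu-cKO, and Mut_340 stood far above the others (log2 fold change 0.19, SE 0.088, adjusted p = 0.235, edgeR). Rrm1 was at 654, 634, 581 and 567 CPM in the controls and 651, 652, 626 and 703 in Sufu-cKO (log2 fold change 0.11, SE 0.062, adjusted p = 0.324, edgeR). Both overlapped between genotypes. The log2 fold change of Tyms was 0.05.

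In the E2F and G1/S cyclin group of 5, E2f1 and Ccne2 rose. E2f1 (ENSMUSG00000027490, chr2:154559407-154569892), an activator of S phase genes, was at 66.6, 69.8, 67.8 and 63.9 CPM in the controls and 90.0, 76.8, 81.3 and 80.1 in Sufu-cKO. The lowest Sufu-cKO sample, Mut_317, was above the highest control. The means were 67.0 ± 2.48 and 82.1 ± 5.64 CPM (SD, n = 4 each), a log2 fold change of 0.29 (SE 0.062, adjusted p = 0.00972, edgeR), which is 1.22-fold, and the call held with each of the 8 samples left out. Its partner family member E2f2 had a log2 fold change of -0.01 (adjusted p = 0.972, edgeR).

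Ccne2, a cyclin E that activates CDK2 at S phase entry (ENSMUSG00000028212, chr4:11191351-11204779), had the largest fold change of the 50. It was at 60.2, 59.9, 60.2 and 58.7 CPM in the controls and at 65.6, 71.8, 78.4 and 92.3 CPM in Mut_295, Mut_317, Mut_337 and Mut_340. The controls were nearly equal and the Sufu-cKO samples spread widely above them, at 59.7 ± 0.711 and 77.0 ± 11.4 CPM (SD, n = 4 each). The log2 fold change was 0.37 (SE 0.089, adjusted p = 0.0204, edgeR), and the call was lost without any 1 of the 4 controls (adjusted p 0.0507 to 0.0589) and with 1 surrogate variable in the model (0.25, adjusted p = 0.0534). Its exons overlap those of Ints8 on the opposite strand by 609 bases, and whether the counting used strand is not given in the sources used here. Its paralogue Ccne1 had a log2 fold change of 0.09. Cdk2, the kinase that both activate and the most abundant of the group, was at 128, 127, 130 and 123 CPM in the controls and 125, 126, 126 and 131 in Sufu-cKO. Its 95% interval of -0.10 to 0.11 reached neither a 25% rise nor the inverse fall.

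The 6 genes of the G2/M cyclins, CDK1 and the CDC25 phosphatases all had positive log2 fold changes, with a median of 0.18, and Ccnb2 and Cdc25b rose. Ccnb2, a mitotic cyclin B (ENSMUSG00000032218, chr9:70407689-70421554), had the smallest p of the 50. It was at 101, 101, 97.7 and 96.3 CPM in the controls and 117, 119, 121 and 121 CPM in Sufu-cKO. The gap between the genotypes was larger than the spread within either, at 98.9 ± 2.28 and 120 ± 1.97 CPM (SD, n = 4 each). The log2 fold change was 0.28 (SE 0.047, 95% interval 0.17 to 0.38, adjusted p = 0.00262, edgeR), which is 1.21-fold. In the authors' deposited table its fold change was also 1.21, with a false discovery rate of 0.0636.

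Cdc25b, a phosphatase that activates CDK1 (ENSMUSG00000027330, chr2:131186949-131198497), was at 112, 113, 105 and 109 CPM in the controls and 136, 122, 123 and 127 in Sufu-cKO. The groups did not overlap (log2 fold change 0.21, SE 0.054, adjusted p = 0.0248, edgeR). The call was lost without any 1 of the 4 controls (0.0517 to 0.0861). Ccna2, the cyclin A of S phase and G2, was at 496, 465, 397 and 438 CPM in the controls and 494, 527, 512 and 608 in Sufu-cKO. Only Mut_295 fell below a control, Cont_294, and the log2 fold change of 0.25 (SE 0.080) missed the threshold at an adjusted p of 0.0663 (edgeR). DESeq2 called it (0.0293). The partner cyclin Ccnb1 had a log2 fold change of 0.15 (adjusted p = 0.143), the phosphatase Cdc25c one of 0.15 (0.139), and Cdk1, the kinase of mitotic entry, one of 0.08 (0.524).

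Among the mitotic kinases and survivin, none of 4 passed and all 4 intervals lay between a 25% rise and the inverse fall. At an unadjusted p under 0.05, 1 of the 4 was higher. Birc5, which encodes survivin of the chromosomal passenger complex, was at 109, 102, 102 and 111 CPM in the controls and 115, 117, 117 and 119 in Sufu-cKO. These did not overlap, and the log2 fold change was 0.14 (SE 0.051, adjusted p = 0.107, edgeR). Aurkb, the kinase of the same complex, was at 123, 130, 133 and 129 CPM in the controls and 146, 140, 130 and 130 in Sufu-cKO, with overlap (log2 fold change 0.08, SE 0.056, adjusted p = 0.422, edgeR). The kinases Aurka and Plk1 had log2 fold changes of 0.03 and 0.12.

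The spindle checkpoint and anaphase-promoting complex genes gave 0 of 5 called by edgeR (2 higher at an unadjusted p under 0.05), with a median log2 fold change of 0.07, which was 0.04 without Cont_370 and 0.04 with 1 surrogate variable. Mad2l1, a checkpoint protein that binds CDC20, was at 115, 111, 104 and 108 CPM in the controls and 117, 114, 126 and 143 in Sufu-cKO, again with Mut_340 highest (log2 fold change 0.19, SE 0.072, adjusted p = 0.140, edgeR). Bub1b, its partner in the checkpoint, was at 325.3, 311.5, 306.0 and 288.8 CPM in the controls and 314.9, 329.3, 316.8 and 335.4 in Sufu-cKO (log2 fold change 0.07, SE 0.052, adjusted p = 0.463, edgeR). Cdc20 and Ube2c, an activator and the ubiquitin-conjugating enzyme of the complex, had log2 fold changes of -0.02 and 0.01. None of the 3 centromere genes passed in edgeR either, and 0 had an unadjusted p under 0.05. Cenpf, a kinetochore protein, was at 318.8, 327.9, 261.5 and 308.5 CPM in the controls and 294.3, 376.3, 326.7 and 370.2 in Sufu-cKO (log2 fold change 0.17, SE 0.090, adjusted p = 0.305, edgeR), with overlap. Cenpa and Cenpe had log2 fold changes of 0.07 and 0.08.

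The 6 chromosome and spindle genes had a median log2 fold change of 0.18, and Hmmr was the only one that rose. Hmmr, a spindle assembly protein and hyaluronan receptor (ENSMUSG00000020330, chr11:40701395-40733422), was at 125, 129, 113 and 119 CPM in the controls and 131, 149, 141 and 156 in Sufu-cKO. The lowest Sufu-cKO sample, Mut_295, was just above the highest control (log2 fold change 0.25, SE 0.065, adjusted p = 0.0286, edgeR). Its call was kept without Cont_345 (0.0419) or Mut_295 (0.00998) and lost without any other 1 sample (0.0553 to 0.0993) and with 1 surrogate variable (0.0788). Top2a, the topoisomerase that untangles sister chromatids and the most abundant of the 50 by CPM, was at 1176, 1203, 1032 and 1105 CPM in the controls and 1189, 1326, 1263 and 1449 in Sufu-cKO. Only Mut_295 lay within the control range (log2 fold change 0.21, SE 0.072, adjusted p = 0.0898, edgeR, and 0.0439 by DESeq2).

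Mki67, the proliferation antigen Ki-67, is added for its wide use as a marker of cycling cells, and was chosen after its values were seen. It was at 650, 651, 533 and 722 CPM in Cont_294, Cont_345, Cont_365 and Cont_370, and at 697, 894, 733 and 876 in Mut_295, Mut_317, Mut_337 and Mut_340. Cont_370 lay above Mut_295, so the groups overlapped. The means were 639 ± 78.0 and 800 ± 99.7 CPM (SD, n = 4 each), and the log2 fold change of 0.32 (SE 0.104, 95% interval 0.09 to 0.55) missed the threshold at an adjusted p of 0.0771 (edgeR). DESeq2 called it (0.0220), as did edgeR without Cont_370 (0.0482) or without Mut_295 (0.0413). The microtubule binding genes Tpx2, Nusap1 and Aspm had log2 fold changes of 0.12, 0.16 and 0.15.

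**Figure D3:**
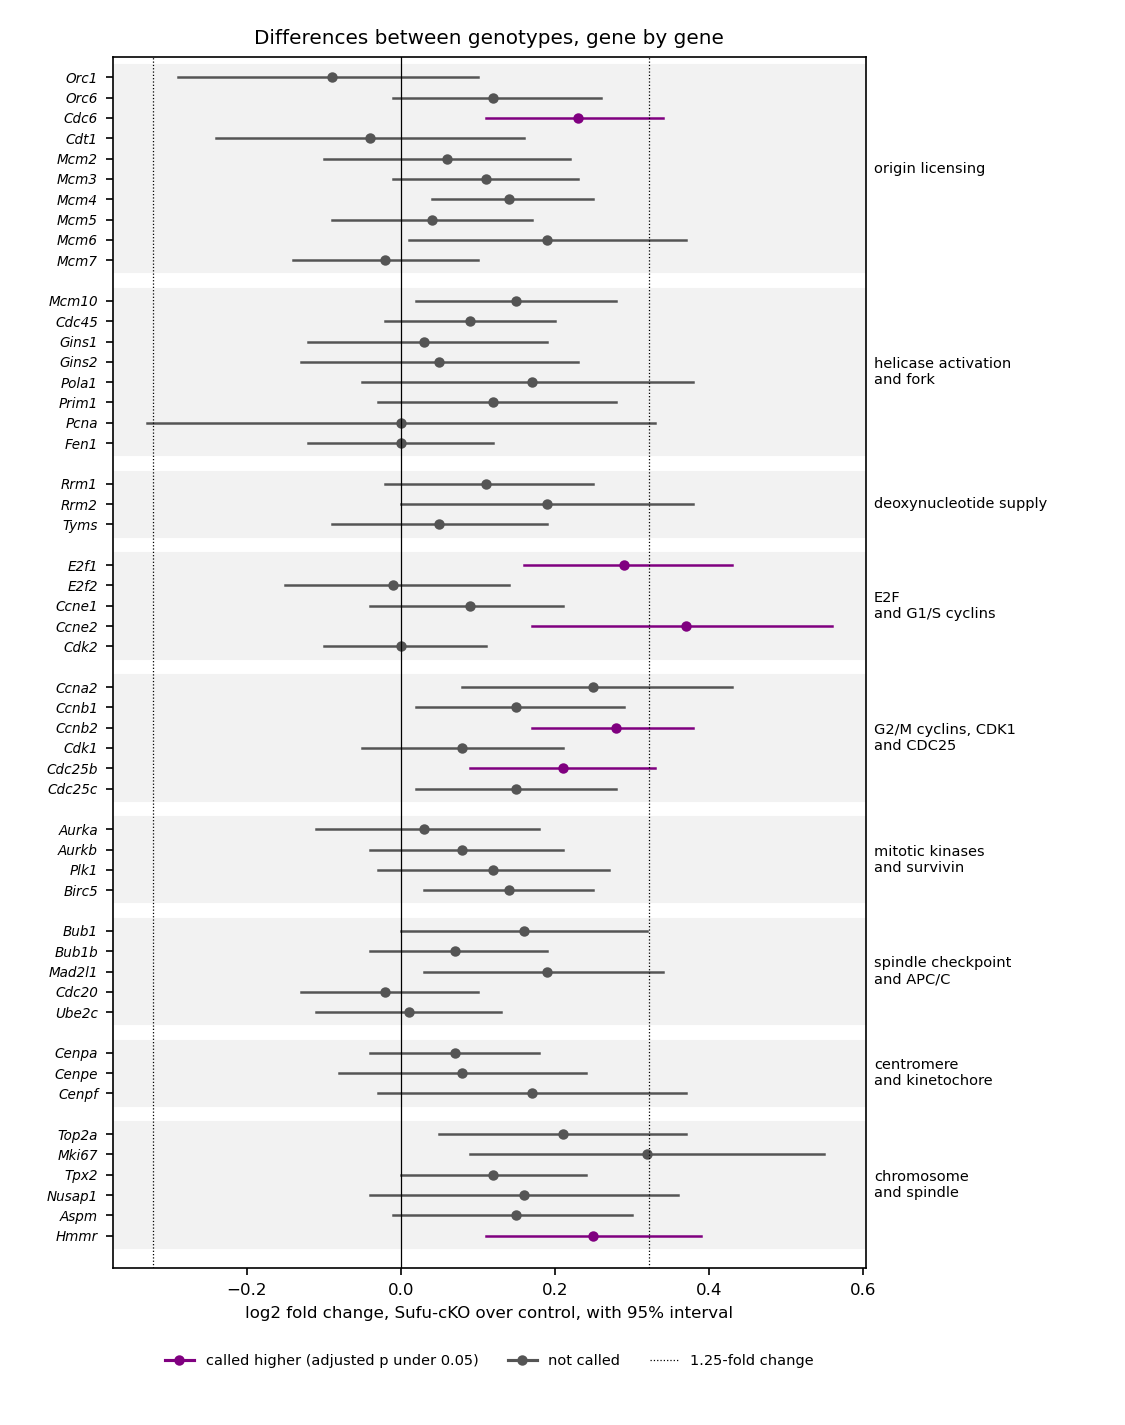
Log2 fold change of Sufu-cKO over control for each of the 50 genes (x axis, with its 95% interval), grouped by role (y axis), with the 6 called genes in colour and dotted lines at a 25% rise and its inverse. The intervals of 34 genes lie between the dotted lines, and the highest estimates are Ccne2 at 0.37 and Mki67 at 0.32.

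The 21 genes of licensing, the fork and the deoxynucleotide supply had a median log2 fold change of 0.09 with 1 called (4.76%, beside 5.34% of all genes called higher), and the 24 genes of G2 and mitosis had 0.15 with 3 called. Their summed levels had ratios of Sufu-cKO to control of 1.07 and 1.13. The 5 E2F and G1/S cyclin genes were in neither set, although the promoter counts above pooled them with the replication genes. Of these 5, 2 were called (E2f1 and Ccne2), with a median log2 fold change of 0.09 and a summed ratio of 1.10. The number called on the replication side therefore depends on where these genes are placed. The difference between the sets of 21 and 24 genes was not tested. Compared per length, as RPKM (CPM per kilobase of merged exon), the highest control levels were those of Rrm2 (140), Top2a (125), Ccna2 (110), Cdc20 (106) and Mcm3 (102), and the lowest those of Orc1 (7.30) and Gins2 (9.31). These levels depend on the annotated exon length. Of the 4097 merged exon bases of Gins2, 2758 overlap Gse1 on the opposite strand. Of the called genes, Ccnb2 had a control RPKM of 64.6, E2f1 of 21.2 and Cdc6 of 12.6.

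Longer lists of the same pathways, chosen with earlier results of these data known, were counted in the same way. Of 48 other replication genes 2 rose and 0 fell, and 4.17% called higher is no more than the 5.34% of all tested genes (edgeR; 8 higher and 0 lower at an unadjusted p under 0.05, and 0 lower by DESeq2), with a median log2 fold change of 0.08. These were the histone chaperone gene Asf1b, at 50.1 ± 3.34 CPM in the controls and 62.3 ± 4.06 in Sufu-cKO (log2 fold change 0.31, adjusted p = 0.0121, edgeR), and Slbp, which binds histone mRNA, at 107 ± 5.88 and 125 ± 8.43 CPM (0.23, adjusted p = 0.0365; SD, n = 4 each). Of 56 other mitosis genes 8 rose and 0 fell, 14.3% called higher beside 5.34% of all genes (edgeR; 23 higher and 1 lower at an unadjusted p under 0.05, and 0 lower by DESeq2), with a median of 0.12. The lowest Sufu-cKO sample exceeded the highest control for 18 of the 56 (32.1%), beside 8.33% of all genes. The smallest p were those of Cdca3, with a mean of 167 CPM in the controls and 209 in Sufu-cKO (log2 fold change 0.33), the centromere gene Cenpi (52.6 and 69.2 CPM, 0.40), the checkpoint kinase gene Ttk (110 and 131 CPM, 0.25) and the condensin gene Ncapg (180 and 216 CPM, 0.26). Their adjusted p ran from 0.00586 to 0.0176 (edgeR). Without Cont_345 or Cont_370 the number that rose fell from 8 to 3.

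Of 19 genes for E2F factors, their pocket protein partners and MuvB subunits, 2 rose and 0 fell, 10.5% called higher beside 5.34% of all genes (edgeR; 4 higher and 1 lower at an unadjusted p under 0.05, and 0 lower by DESeq2), with a median log2 fold change of 0.04. E2f8, a repressor of the E2F family that is itself switched on by E2F factors, was at 71.0, 68.4, 64.4 and 68.8 CPM in the controls and 87.5, 84.2, 80.4 and 87.2 in Sufu-cKO. The groups were well apart (log2 fold change 0.32, SE 0.056, adjusted p = 0.00322, edgeR). Tfdp2, which encodes a dimer partner of E2F factors, rose from 131 ± 6.94 to 153 ± 5.20 CPM (SD, n = 4 each; log2 fold change 0.23, adjusted p = 0.0175, edgeR). The mitotic activators Foxm1 and Mybl2 both had log2 fold changes of 0.06, and the retinoblastoma gene Rb1 one of 0.03.

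**Figure D4:**
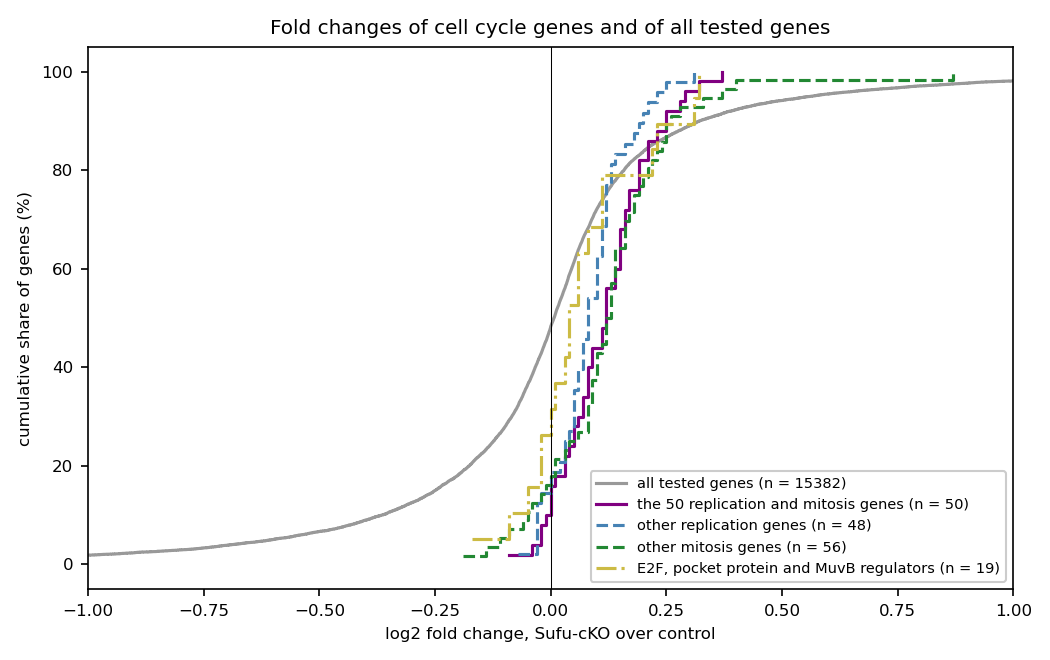
Cumulative share of genes (y axis, %) by log2 fold change of Sufu-cKO over control (x axis) for all 15382 tested genes, the 50 genes and the 3 longer lists. The curve of the 50 genes crosses its middle at 0.12 and rises steeply, while that of all genes is centred at 0.01 and has long tails on both sides, cropped at 1 in either direction.

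Cell type markers also differed between the genotypes, and their counts stand beside 5.34% of all tested genes called higher and 5.64% called lower. The summed level of 12 progenitor markers was 3309 to 3542 CPM in the controls and 4401 to 4587 in Sufu-cKO, with 6 called higher and 0 lower. The other 6 had negative log2 fold changes down to -0.34 (Fabp7), 3 of them at an unadjusted p under 0.05, so the list did not move as one. The summed level of 14 neuron markers was 2440 to 2856 and 3027 to 3274 CPM, with 7 called higher and 0 lower. For 8 intermediate progenitor markers the ranges overlapped, at 925 to 1131 and 928 to 1072 CPM (3 higher, 1 lower), and so did those of 10 GABAergic markers, at 102 to 210 and 127 to 323 CPM (1 higher, 0 lower). Choroid plexus, endothelial, pericyte, microglia and erythroid markers had lower summed levels in Sufu-cKO. Choroid plexus markers were at 529 to 805 CPM and 92.2 to 293 (0 higher and 6 lower of 9), with the lowest sum in Mut_340. Endothelial markers were at 340 to 391 and 284 to 339 CPM (0 higher and 3 lower of 10), pericyte markers at 245 to 277 and 160 to 215 (0 and 2 of 7), and microglia markers at 71.0 to 87.4 and 50.6 to 66.6 (0 and 4 of 11). Erythroid markers were at 3577 to 4716 and 3084 to 3548 CPM, with 0 of 12 called by edgeR (5 lower at an unadjusted p under 0.05). No listed marker was at 0 in all samples. The part of these shifts in the higher summed level of the 50 genes was not tested.

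**Figure D5:**
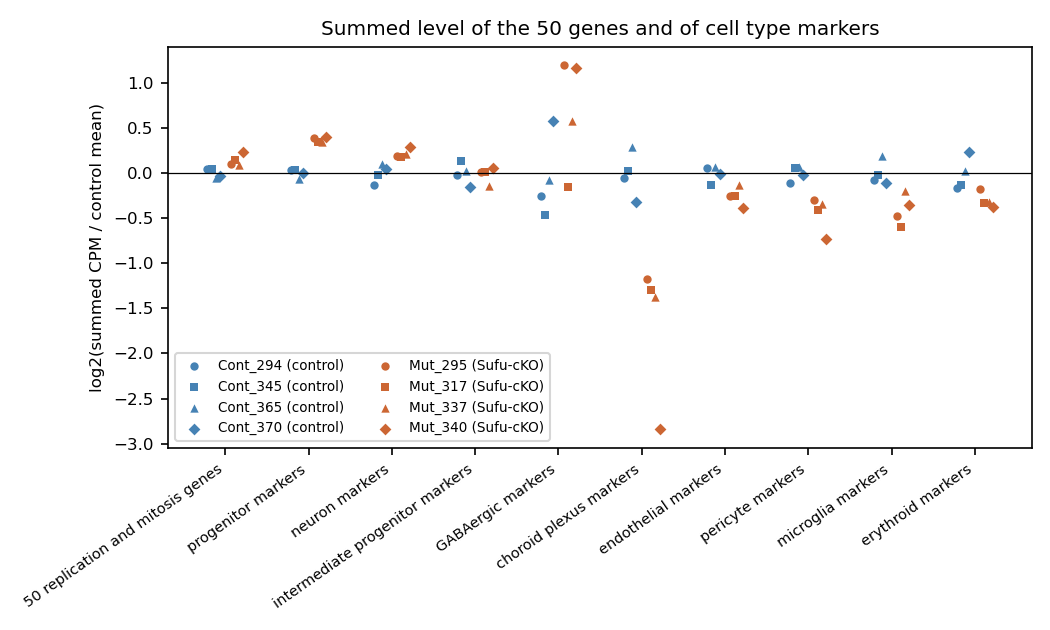
Summed CPM of the 50 genes and of each list of cell type markers in every sample, as log2 of the ratio to the control mean of the same list (y axis), with lists along the x axis and controls and Sufu-cKO samples by colour. For the 50 genes every Sufu-cKO sample lies slightly above every control, while the choroid plexus markers fall to 92.2 CPM in Mut_340 against 529 to 805 in the controls.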

How the data were processed

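Per the labels' protocols, extraction used the Qiagen RNeasy kit and library preparation the Illumina TruSeq Stranded mRNA kit. STAR 2.4.2a and GRCm38 are named in the submitters' processing notes. Which counting program, strand setting and annotation were used is not given in the sources used here. Raw counts per gene, as deposited by the authors for all 8 samples, were tested. The authors also deposited a normalised signal, which was the count divided by 1 size factor per sample when checked, and their own fold change (a ratio), p-value and false discovery rate. Among their gene IDs, 1 had become a spreadsheet formula and was restored. Columns that matched no sample numbered 0.

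Counts were compared in R 4.3.3 with edgeR 4.0.16. Its filterByExpr step (minimum count 10, minimum total 15) left 15382 of 25299 genes with any count, libraries were scaled by TMM, and genotype was tested by the robust quasi-likelihood F-test, two-sided, with Benjamini-Hochberg adjustment over all tested genes. The threshold was an adjusted p of 0.05. The biological coefficient of variation was 12.8%. CPM used the TMM library sizes, and RPKM the merged exon lengths of GENCODE M21, which held all 50 genes. The script was tested on simulated data. No pair of samples of a genotype was as close as repeat deposits of the same library would be, so each was counted once; this does not show that they are separate animals.

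The 50 genes and all lists were chosen with earlier results of these data known. Values in every sample are given for each called gene of the 50 and, per role, for the gene with the smallest p and the most abundant. For the longer lists, up to 4 called genes in each direction are given, as group means except for E2f8. Alternatives were other scalings (RLE, upper quartile, library size), no filter, a minimum of 1 CPM in 4 samples, limma-voom (limma 3.58.1), DESeq2 1.42.0, edgeR without robust estimation, 1 surrogate variable (sva 3.50.0), and each sample left out.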

Additional observations from a re-analysis of the deposited data

Results flagged for a closer look

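Each of the 50 genes was examined in both genotypes for a sample far from its group, where the gap of an extreme sample, over the range of its 4 samples, exceeded Dixon's 95% critical value. This held for 8 of 100 groups, and chance gives about 1 in 20. Mut_340 stood above the other 3 Sufu-cKO samples in Rrm2 (538 CPM, the others 406 to 414), Pola1 (160, the others 123 to 128) and Cdk1 (280, the others 250 to 251). Mut_295 stood above the others in Mcm3 (439 CPM, the others 400 to 405) and Fen1 (143, the others 127 to 129). Among the controls, Cont_370 was low in Mcm7 (322 CPM, the others 356 to 361), and Cont_345 was high in Cdt1 (66.0, the others 60.6 to 61.5) and low in Orc6 (68.8, the others 76.0 to 76.7). None of these 8 genes was called by edgeR.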

How the results depend on the processing

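Of the 6 called genes, Ccnb2 and E2f1 were called under all 17 alternatives. The number of the 50 called was 10 by DESeq2 and ran from 2 to 9 with each sample left out. All genes called higher ran from 537 to 939 and lower from 542 to 897 with each sample left out, and the licensing median from 0.04 to 0.10. Over all 17 alternatives the median log2 fold change was 0.08 to 0.13 for the 50 genes, 0.05 to 0.13 for the mitotic kinases and survivin and 0.04 to 0.10 for the checkpoint genes. With each sample left out, 3 to 9 other mitosis genes, 1 to 2 other replication genes and 1 to 2 E2F, pocket protein and MuvB genes were called higher, and 0 to 1 of the last list lower. Upper-quartile scaling called 1 other replication gene higher. Library size only, and 1 surrogate variable, each called 1 of the E2F, pocket protein and MuvB genes lower (main count 0).

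The direction turned in 12 of the 50 genes, all with log2 fold changes within 0.06 of 0. With 1 surrogate variable it was 0.02 for Cdc20, -0.01 for Cdk2, 0.05 for Cdt1, 0.01 for E2f2 and -0.03 for Gins1. With upper-quartile scaling, as with library size only, it was -0.02 for Cdk2, -0.02 for Fen1 and -0.01 for Ube2c. With at least 1 CPM in 4 samples it was -0.01 for Cdk2 and -0.01 for Fen1, and with no filter -0.01 for Fen1. For Pcna it was 0.02 by limma-voom and 0.01 with Pcna-ps2 added. With each sample left out, the ranges were -0.02 to 0.06 for Aurka, -0.05 to 0.01 for Cdc20, -0.02 to 0.01 for Cdk2, -0.15 to 0.01 for Cdt1, -0.05 to 0.03 for E2f2, -0.04 to 0.02 for Fen1, -0.02 to 0.06 for Gins1, -0.03 to 0.10 for Gins2, -0.01 to 0.09 for Mcm2, -0.10 to 0.10 for Pcna, -0.02 to 0.09 for Tyms and -0.02 to 0.04 for Ube2c. The cause of these changes was not tested.

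No paired analysis was possible because the labels give no litter or pairing. Exons of 16 of the 50 genes overlap another gene, and whether the counting used strand is not stated. With 4 samples per genotype and a median standard error of 0.064, log2 changes of about that size were not detectable, and larger ones could be missed. The smallest log2 fold change called among the 50 was 0.21 (Cdc25b), while Mki67 at 0.32 was not called (edgeR).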

Other observations

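A pair of genes in the longer mitosis list had levels that fell into separate sets of samples, and both were chosen after their values were seen. Pttg1, which encodes securin, the inhibitor of separase, was at 13.0 CPM in Cont_294 and 11.3 in Cont_365, against 44.2 in Cont_345, 45.7 in Cont_370 and 49.9 to 56.9 in the 4 Sufu-cKO samples. Its log2 fold change of 0.87 (SE 0.505, adjusted p = 0.386, edgeR) was the highest of that list and not called. Kpna2, a nuclear import receptor gene, was at 34.4 CPM in Cont_294 and 30.5, 31.3 and 33.7 in Mut_295, Mut_317 and Mut_340, against 17.9 to 18.6 in the other 3 controls, with Mut_337 just above these (log2 fold change 0.37, SE 0.252, adjusted p = 0.454, edgeR).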
